A study of Arabidopsis thaliana with 12 samples.

Results

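The genes described here are the 29 Aux/IAA repressor genes and the 4 auxin receptor genes *TIR1*, *AFB1*, *AFB2* and *AFB3* of *Arabidopsis thaliana*. They were chosen by gene family, through their locus identifiers, and not by any measured value, although earlier results of these data were known. Of these 33 genes, 32 had a probe set among the 22746 probe sets tested, and each of these 32 probe sets was annotated to 1 locus. *IAA15* was not analysed here.

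The series asks which mRNAs depend on eIF3k, one of the non-core subunits of initiation factor eIF3, for their loading with ribosomes. The mutant, *eif3k*, carries a T-DNA in an intron of the eIF3k gene and was set against the wild type (WT). Both are of ecotype Columbia, were grown on agar medium with sucrose and were harvested as aerial tissue at 11 days. The mutant is a single insertion line, in which the study found a 3′-truncated transcript in place of the full-length one. Each sample combines many seedlings. Lysates were spun through sucrose gradients, the lower part of the gradient gave the polysomal RNA (PL) and the upper part the non-polysomal RNA (NP), and Affymetrix ATH1 arrays were hybridized with each. There were 3 replicates of PL and NP in *eif3k* and 3 in WT, which makes 12 arrays.

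Auxin acts as a glue between an F-box receptor of the TIR1/AFB family and the degron of an Aux/IAA protein. The receptor belongs to an SCF ubiquitin ligase, so that the bound Aux/IAA protein is degraded and the auxin response factors it had repressed, together with TOPLESS corepressors, become active. Many Aux/IAA genes are themselves induced by auxin and encode short-lived proteins.

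The measure of ribosome loading is the translation state (TL), the log2 PL minus the log2 NP signal of a replicate. A positive TL means a stronger signal in PL than in NP. The arrays were normalized to each other, so a TL of 0 does not mean that an mRNA was split equally between the fractions. A probe set was called when the Benjamini-Hochberg adjusted p of limma over all 22746 probe sets was under 0.05 and the log2 difference was at least 1. A brighter probe set is one with a mean log2 signal of at least 5 over the 12 arrays, which 7182 probe sets reached. The lowest signal, 2.33, is a floor of the deposited values. Signals of different probe sets are not compared in level.

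WT replicate 3 stood apart from the other samples. Over the brighter probe sets its TL correlated with that of the other 5 samples at r = 0.428 to 0.479, while those 5 correlated with each other at 0.812 to 0.94 (probe sets are not independent replicates). Its PL array had an SD of 1.94 in log2 signal, against 2.15 to 2.29 on the other arrays. The 3′ probe set of GAPDH exceeded the 5′ probe set by 8.98 in log2 on that array, against 5.56 to 7.97 elsewhere, and for ubiquitin the values were 3.54 there and 1.70 to 2.92 elsewhere. Of 6423 probe sets that lay within 0.2 of the floor on the other 11 arrays, 687 were at least 1 above the floor on it, while no other array had more than 40 such probe sets. Results that rest on this sample are therefore given with and without it. Signals of 4 green leaf markers lay between 11.30 and 14.90 on the other 11 arrays and those of 7 root markers between 2.33 and 2.72. On the PL array of WT replicate 3 the ranges were 8.79 to 14.77 and 2.33 to 3.51. The eIF3k gene itself had log2 NP signals of 7.30, 7.93 and 8.05 in *eif3k*, against 9.26, 9.45 and 9.01 in WT, and PL signals of 7.17, 7.06 and 7.63 in *eif3k*, against 8.61, 8.89 and 7.28 in WT. The mutant was lower in every same-numbered pair except the PL pair of replicate 3, and the position of the probes relative to the T-DNA is unknown.

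Of the 28 Aux/IAA probe sets, 12 were brighter, 7 were dim and 9 stayed at the floor. The brighter ones were *IAA2*, *IAA4*, *IAA7*, *IAA8*, *IAA9*, *IAA12*, *IAA13*, *IAA16*, *IAA17*, *IAA18*, *IAA26* and *IAA27*, and the dim ones *IAA1*, *IAA3*, *IAA10*, *IAA11*, *IAA14*, *IAA19* and *IAA28*. Those at the floor, within 0.5 of it on at least 11 arrays, were *IAA5*, *IAA6*, *IAA20*, *IAA29*, *IAA30*, *IAA31*, *IAA32*, *IAA33* and *IAA34*. They include *IAA20*, *IAA30*, *IAA32*, *IAA33* and *IAA34*, whose proteins lack the canonical degron. Among the receptors *TIR1*, *AFB2* and *AFB3* were brighter and *AFB1* was dim. Nearest to the limit of 5 lay *IAA12* (5.21) and *IAA4* (5.22) above it and *IAA11* (4.91) and *AFB1* (4.81) below it.

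The receptor mRNAs had lower translation states than most of the brighter Aux/IAA mRNAs. All 4 receptors had a TL below 0 in every sample, as did 25.5% of the brighter probe sets. In contrast, *IAA7*, *IAA13* and *IAA27* had a TL above 0 in every sample (19.3% of the brighter probe sets), and *IAA9*, *IAA12* and *IAA17* joined them when WT replicate 3 was set aside. These 6 are 6 of the 12 brighter Aux/IAA probe sets, against 37.9% of all brighter probe sets. The median TL of the 3 brighter receptors was -1.22, -1.63 and -1.10 in *eif3k* replicates 1, 2 and 3, against -1.08, -1.18 and -2.37 in WT. That of the 12 brighter Aux/IAA mRNAs was 0.39, 0.65 and 0.49 in *eif3k*, against 0.37, 0.28 and -0.58 in WT. In each of the 6 samples the receptors had the lower median. For all brighter probe sets the medians were 0.11, 0.11 and 0.03 in *eif3k*, against 0.05, 0.12 and -0.44 in WT.

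**Figure D1:**
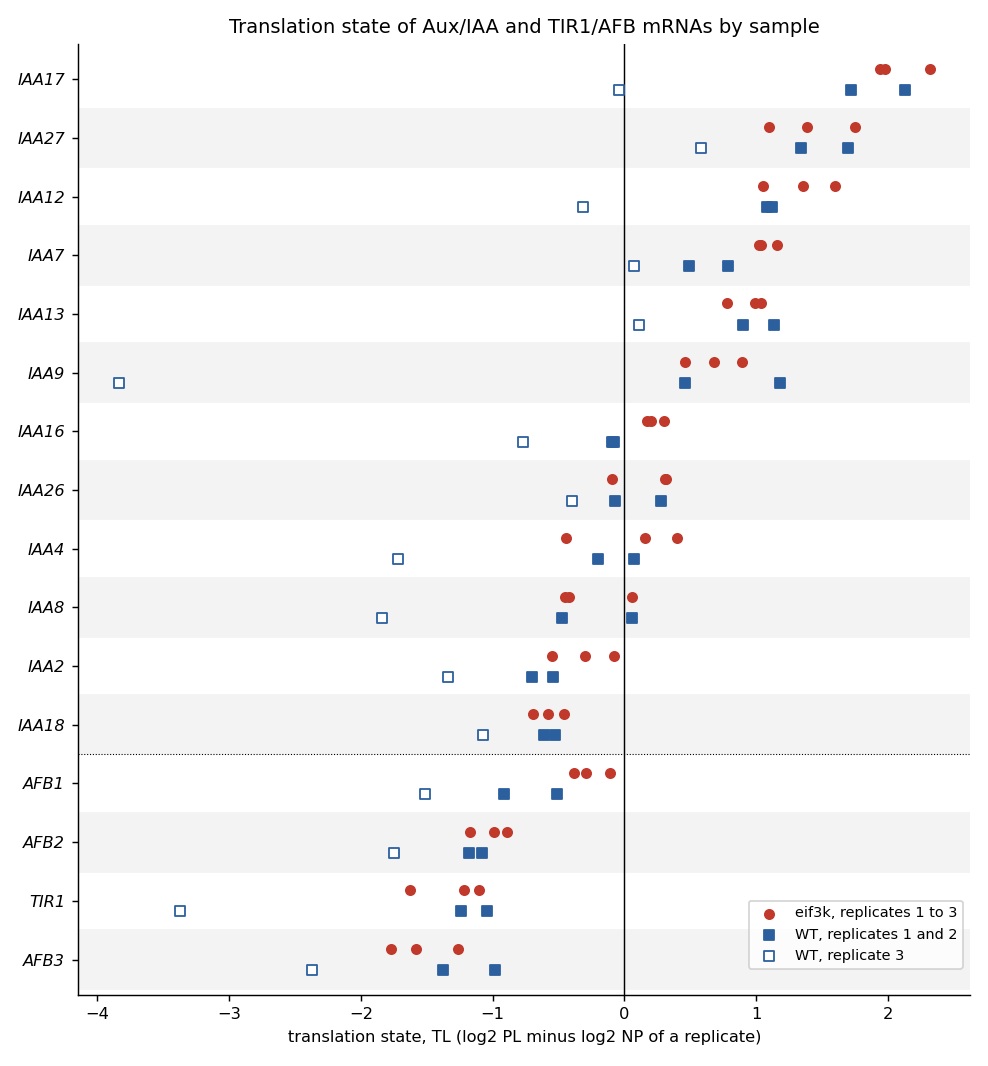
Translation state (TL, log2 PL minus log2 NP of a replicate, x axis) of the 12 brighter Aux/IAA mRNAs (above the dotted line) and the 4 receptor mRNAs (below it), with red circles for *eif3k* samples and blue squares for WT samples below them. The open square, WT replicate 3, is the lowest of the 6 samples in every row, and all receptor values lie left of 0.

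*TIR1* (AT3G62980), the founding member of the receptor family, had log2 signals of 6.45, 6.41 and 6.54 in PL and 7.67, 8.04 and 7.64 in NP of *eif3k*. In WT it had 6.56, 6.54 and 4.15 in PL and 7.80, 7.58 and 7.52 in NP. PL thus lay below NP without overlap in either genotype, and the PL array of WT replicate 3 was far below the other PL arrays. The TL of *TIR1* was -1.32 ± 0.28 in *eif3k* and -1.88 ± 1.29 in WT (SD, n = 3 each), and it was not called against 0 (limma adjusted p = 0.231 in *eif3k* and 0.123 in WT). It was called in both genotypes without WT replicate 3, with a TL of -1.32 in *eif3k* (adjusted p = 0.0198) and -1.14 in WT (adjusted p = 0.0431). The fit shares its spread between the genotypes, so leaving out a WT sample also changes the adjusted p in *eif3k*. A fit on each genotype alone gave no call for *TIR1* (limma adjusted p = 0.0794 in *eif3k* and 0.446 in WT). Leaving out replicate 3 in both genotypes gave none either (0.0604 in *eif3k* and 0.0765 in WT).

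*AFB2* (AT3G26810) was the receptor called in the fit of all samples. Its log2 signals were 5.09, 5.06 and 5.05 in PL and 6.08, 6.23 and 5.94 in NP of *eif3k*. In WT they were 5.10, 4.93 and 3.89 in PL and 6.18, 6.11 and 5.64 in NP. Every NP array lay above every PL array. The TL was -1.02 ± 0.14 in *eif3k* (SE 0.15, limma adjusted p = 0.0341), which is 2.02-fold less signal in PL than in NP. In WT it was -1.34 ± 0.36 (SE 0.15, adjusted p = 0.02), or 2.53-fold less. In the fit of all samples 2.55% of probe sets were called lower in PL in *eif3k* and 2.82% in WT. The call stood in both genotypes without WT replicate 3 (adjusted p = 0.0129 in *eif3k* and 0.0208 in WT), but it ended in both when WT replicate 1, WT replicate 2 or any single *eif3k* replicate was left out. Over the 9 settings that left out 1 sample or 1 replicate number, the adjusted p of limma ranged from 0.0129 to 0.349 in *eif3k* and from 0.0208 to 0.251 in WT. A fit on each genotype alone also ended the call (adjusted p = 0.0586 in *eif3k* and 0.179 in WT). An unpaired fit of the arrays ended it in *eif3k* (0.0728) and kept it in WT (0.0287).

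*AFB3* (AT1G12820), which takes part in root responses to nitrate, had log2 signals of 5.98, 6.07 and 5.78 in PL and 7.56, 7.84 and 7.04 in NP of *eif3k*. In WT they were 6.41, 6.12 and 4.80 in PL and 7.39, 7.50 and 7.17 in NP. Again no PL value reached an NP value. The TL was -1.54 ± 0.26 in *eif3k* and -1.58 ± 0.72 in WT and narrowly missed the threshold (limma adjusted p = 0.0554 in *eif3k* and 0.0543 in WT). It was called without WT replicate 3, with -1.54 in *eif3k* (adjusted p = 0.0186) and -1.18 in WT (adjusted p = 0.0472). A fit on each genotype alone gave no call (limma adjusted p = 0.0667 in *eif3k* and 0.287 in WT). Leaving out replicate 3 in both genotypes gave none either (0.0513 in *eif3k* and 0.0716 in WT).

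*AFB1* (AT4G03190) had the TL nearest to 0 among the receptors in each of the 6 samples. Its log2 signals were 4.64, 4.77 and 4.56 in PL and 4.75, 5.15 and 4.85 in NP of *eif3k*, and 4.73, 4.55 and 3.78 in PL and 5.24, 5.46 and 5.29 in NP of WT. The fractions overlapped in *eif3k* and did not in WT. Its TL was -0.26 ± 0.14 in *eif3k* and -0.98 ± 0.50 in WT, and it was not called with all samples (limma adjusted p = 0.604 and 0.0671 in *eif3k* and WT) or without WT replicate 3 (0.249 and 0.0677).

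**Figure D2:**
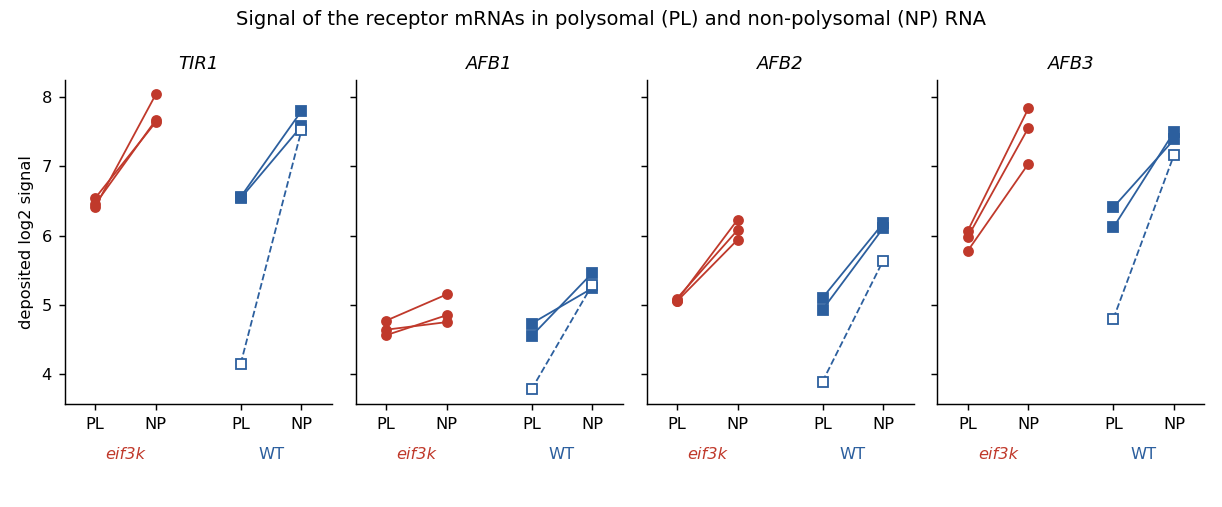
Deposited log2 signal (y axis) of the receptor mRNAs in PL and NP, with *eif3k* in red on the left and WT in blue on the right of each panel, and a line joining the fractions of a replicate (open squares and dashed line, WT replicate 3). Every line climbs from PL to NP, and levels are not compared between genes.

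As a group, 3 of the 4 receptors, *TIR1*, *AFB2* and *AFB3*, were called lower in PL without WT replicate 3, in *eif3k* and likewise in WT. With replicate 3 left out in both genotypes *AFB2* alone was called. No receptor was called when any other sample or replicate number was left out. The share of all probe sets called lower in that fit was 3.66% in *eif3k* and 3.05% in WT. Of the 7182 brighter probe sets, 653 were called lower in *eif3k* and 515 in WT. Set against the brighter probe sets, 7.4% had a lower mean TL than *TIR1* in *eif3k*, 12.0% a lower one than *AFB2* and 5.3% a lower one than *AFB3*. In WT replicates 1 and 2 these shares were 10.5%, 10.7% and 9.9%. *AFB1* lay closer to the middle, with 34.2% in *eif3k* and 19.3% in WT replicates 1 and 2. The mRNAs of *TIR1*, *AFB2* and *AFB3* are known targets of the microRNA miR393, which was not measured here.

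**Figure D3:**
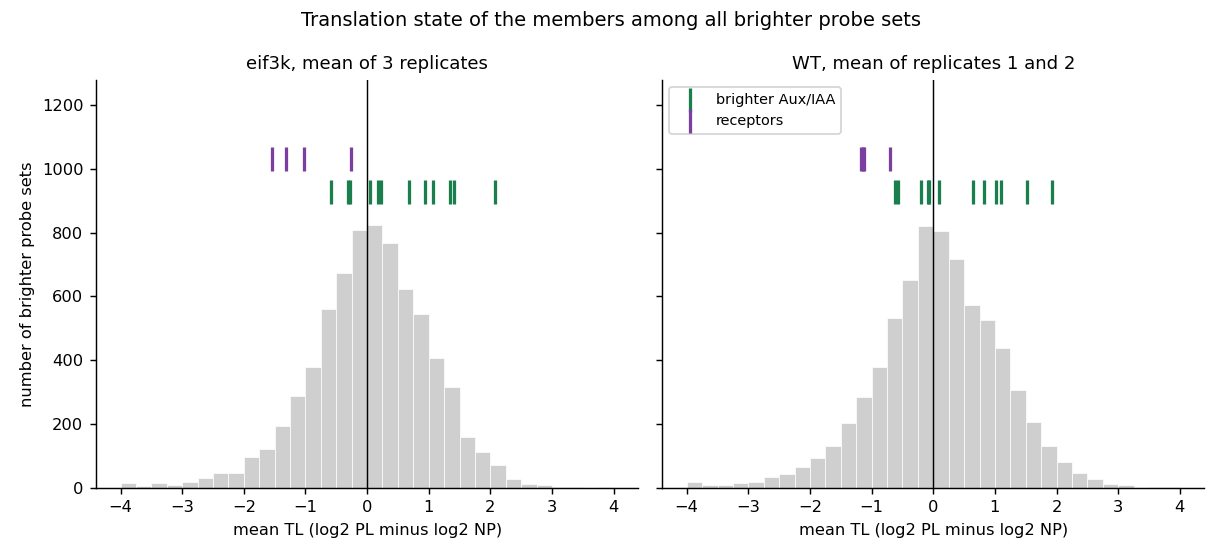
Number of the 7182 brighter probe sets (y axis) by mean TL (x axis, bins of 0.25, with values beyond 4 in the outermost bins) in *eif3k* and in WT replicates 1 and 2. Green ticks mark the 12 brighter Aux/IAA mRNAs and purple ticks the 4 receptors (the dim *AFB1* included), all of which lie left of 0, while *IAA17* is the rightmost tick in both panels.

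Among the brighter Aux/IAA mRNAs *IAA17* (AT1G04250), known as *AXR3* from dominant mutants with exaggerated auxin responses, had the highest mean TL in both genotypes. It had log2 signals of 7.05, 7.42 and 5.98 in PL and 5.11, 5.10 and 4.00 in NP of *eif3k*, and 7.28, 6.79 and 4.91 in PL and 5.15, 5.07 and 4.95 in NP of WT. Its TL was 1.94, 2.32 and 1.98 in *eif3k*, against 2.13, 1.72 and -0.04 in WT. All samples but WT replicate 3 lay far above 0. The mean was 2.08 ± 0.21 in *eif3k* and 1.27 ± 1.15 in WT, and neither was called (limma adjusted p = 0.0725 in *eif3k* and 0.214 in WT). Both were called without WT replicate 3, with a TL of 2.08 in *eif3k* (adjusted p = 0.0122) and 1.93 in WT (adjusted p = 0.023). A fit on each genotype alone called neither (limma adjusted p = 0.0522 in *eif3k* and 0.557 in WT). Leaving out replicate 3 in both genotypes also called neither (0.0511 in *eif3k* and 0.057 in WT), nor did leaving out any other sample. Of the brighter probe sets, 98.6% had a lower TL in *eif3k* and 97.1% in WT replicates 1 and 2.

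*IAA27* (AT4G29080), also named *PAP2* for the phytochrome-associated protein it encodes, had a TL above 0 in all samples. Its log2 signals were 6.98, 7.11 and 7.98 in PL and 5.59, 5.36 and 6.88 in NP of *eif3k*. In WT they were 6.80, 7.09 and 6.48 in PL and 5.46, 5.39 and 5.90 in NP. The fractions did not overlap in either genotype, although replicate 3 of *eif3k* was high in both. Its TL was 1.39, 1.75 and 1.10 in *eif3k*, against 1.34, 1.70 and 0.58 in WT. The mean of 1.41 ± 0.33 in *eif3k* was called (SE 0.25, limma adjusted p = 0.0493), a signal 2.66-fold higher in PL than in NP. That of 1.21 ± 0.57 in WT was not (SE 0.25, adjusted p = 0.0704). When WT replicate 3 was left out it was called in both, at 1.41 in *eif3k* (adjusted p = 0.025) and 1.52 in WT (adjusted p = 0.0396). Of the 9 settings that left out 1 sample or 1 replicate number, the one without WT replicate 3 alone kept the call in *eif3k*. Over these 9 the limma adjusted p ranged from 0.025 to 0.4. The call in *eif3k* also ended under a trended robust prior (0.059), in a fit on *eif3k* alone (0.0859) and in an unpaired fit of the arrays (0.0843).

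*IAA7* (AT3G23050), known as *AXR2* from dominant mutants that are auxin-resistant, had similar TL values in the 3 *eif3k* samples. Its log2 signals were 7.73, 7.74 and 7.53 in PL and 6.57, 6.72 and 6.49 in NP of *eif3k*, and 7.46, 7.16 and 6.98 in PL and 6.67, 6.67 and 6.91 in NP of WT. In either genotype every PL value lay above every NP value. The TL was 1.16, 1.02 and 1.04 in *eif3k*, against 0.79, 0.49 and 0.07 in WT. It was called in *eif3k* (mean 1.07 ± 0.08, SE 0.14, limma adjusted p = 0.028) and not in WT (mean 0.45 ± 0.36, adjusted p = 0.172). Without WT replicate 3 the adjusted p was 0.0134 in *eif3k* and 0.0438 in WT, where the TL of 0.64 stayed under the minimum size. The call in *eif3k* stood without WT replicate 1 (adjusted p = 0.0412) and ended without WT replicate 2 (0.076) or any *eif3k* replicate (0.116 to 0.157). Leaving out any replicate number in both genotypes also ended it (0.0576 to 0.34). Under quantile normalization the TL of 0.99 in *eif3k* stayed under the minimum size.

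With all samples, *IAA7* and *IAA27* were thus the Aux/IAA members called higher in PL in *eif3k*, where 2.18% of all probe sets were, and no Aux/IAA member was called higher in WT (2.01% of all probe sets). Without WT replicate 3 the members called higher were *IAA7*, *IAA12*, *IAA17* and *IAA27* in *eif3k* (4.59% of all probe sets) and *IAA12*, *IAA13*, *IAA17*, *IAA27* and *IAA28* in WT (3.75%). No Aux/IAA member was called lower in PL in any of these fits. Within array batch 1, which holds replicates 1 and 2 of both genotypes, *IAA12* and *IAA13* were called higher in PL and *AFB2* lower, in *eif3k* and in WT alike. The shares of all probe sets called there were 2.48% higher and 1.68% lower in *eif3k*, and 2.18% higher and 1.67% lower in WT. An effect called in one genotype and not in the other is not shown to differ between them, and the test of the difference follows further on.

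*IAA12* (AT1G04550) and *IAA13* (AT2G33310) are close relatives. *IAA12* (*BODENLOS*) restrains the response factor MONOPTEROS in the embryo. The TL of *IAA12* was 1.36, 1.60 and 1.05 in *eif3k*, against 1.12, 1.08 and -0.31 in WT, with log2 PL signals of 5.96, 6.20 and 5.75 in *eif3k* and 5.99, 5.93 and 4.35 in WT. It was not called with all samples (1.34 ± 0.28 in *eif3k*, limma adjusted p = 0.0952, and 0.63 ± 0.81 in WT, adjusted p = 0.391). Leaving out WT replicate 3 gave a call in *eif3k* (1.34, adjusted p = 0.0178) and in WT (1.10, adjusted p = 0.0412). A fit on each genotype alone gave none (limma adjusted p = 0.0781 in *eif3k* and 0.645 in WT).

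For *IAA13* the TL was 1.04, 0.99 and 0.78 in *eif3k*, against 0.90, 1.14 and 0.11 in WT. The close relatives were thus alike in sign in all samples but WT replicate 3. The mean of *IAA13* was 0.94 ± 0.14 in *eif3k* (limma adjusted p = 0.0808) and 0.72 ± 0.54 in WT (0.153). When that sample was left out it passed the adjusted p in both genotypes, and in WT alone it also reached the minimum size (0.94 in *eif3k* with 0.0167, and 1.02 in WT with 0.027).

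*IAA9* (AT5G65670), whose counterpart in tomato restrains fruit set, had a TL of 0.46, 0.89 and 0.68 in *eif3k*, against 0.46, 1.18 and -3.84 in WT. The last is the lowest TL of any member in any sample, and it came from a PL signal of 4.05, where the other 5 PL arrays gave 7.59 to 8.52. The other 5 samples were all above 0. It was not called with all samples (limma adjusted p = 0.976 in *eif3k* and 0.73 in WT) or without WT replicate 3 (0.12 in *eif3k* and 0.136 in WT).

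The TL of 4 brighter Aux/IAA mRNAs lay around 0. *IAA16* (AT3G04730), whose dominant mutant resists auxin and abscisic acid, had 0.20, 0.17 and 0.30 in *eif3k*, against -0.08, -0.09 and -0.77 in WT. *IAA26* (AT3G16500), also named *PAP1*, had 0.32, 0.31 and -0.09 in *eif3k*, against 0.28, -0.07 and -0.40 in WT. *IAA4* (AT5G43700), also named *AUX2-11*, had 0.16, 0.40 and -0.44 in *eif3k*, against 0.07, -0.20 and -1.72 in WT. For *IAA26* and *IAA4* the genotypes overlapped, whereas for *IAA16* every *eif3k* sample lay above every WT sample. *IAA8* (AT2G22670), an Aux/IAA repressor with a role in lateral root formation, had -0.45, 0.06 and -0.42 in *eif3k*, against -0.47, 0.06 and -1.84 in WT. Replicates 1 and 2 of *IAA8* were nearly equal between the genotypes.

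*IAA2* and *IAA18* had a TL below 0 in all samples, and no other brighter Aux/IAA mRNA did so without WT replicate 3 (29.9% of the brighter probe sets). *IAA2* (AT3G23030), an early auxin-induced gene, had -0.08, -0.30 and -0.55 in *eif3k*, against -0.54, -0.70 and -1.34 in WT. *IAA18* (AT1G51950), in which gain-of-function mutations disturb the embryonic root and cotyledons, had -0.58, -0.46 and -0.69 in *eif3k*, against -0.61, -0.53 and -1.07 in WT. The order of the brighter Aux/IAA mRNAs by mean TL in *eif3k*, high to low, was *IAA17*, *IAA27*, *IAA12*, *IAA7*, *IAA13*, *IAA9*, *IAA16*, *IAA26*, *IAA4*, *IAA8*, *IAA2* and *IAA18*. The values of neighbours in this order overlapped among the 3 *eif3k* replicates, except that *IAA17* stood above *IAA27*, and *IAA9* above *IAA16*, in each replicate without overlap.

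The 7 dim Aux/IAA probe sets had mean log2 signals of 3.17 to 4.91 and TL values of -0.26 to 1.69 without WT replicate 3 (-0.95 to 2.12 in that sample). *IAA11*, *IAA19* and *IAA28* had a TL above 0 in all 6 samples. *IAA19* (AT3G15540), known as *MASSUGU2* for its role in the bending of hypocotyls, had 0.95, 1.23 and 1.13 in *eif3k*, against 1.69, 0.10 and 2.12 in WT. *IAA28* (AT5G25890), a repressor of lateral root formation, had 1.00, 0.42 and 0.80 in *eif3k*, against 1.44, 1.10 and 0.42 in WT. Its WT value was called without WT replicate 3 (1.27, limma adjusted p = 0.045), but not with all samples (0.99, adjusted p = 0.0887). *IAA14* (*SOLITARY ROOT*) was above 0 in all samples but WT replicate 3, and *IAA1*, *IAA3* (*SHY2*) and *IAA10* had values on both sides of 0.

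The 9 probe sets at the floor carried no measurable translation state, with TL values of -0.21 to 0.10 in 5 samples. In WT replicate 3 they reached 1.89, since *IAA29*, *IAA31* and *IAA34* had PL signals of 3.42, 4.22 and 4.19 on that array while their other signals did not exceed 2.55. This is the array on which 687 floor probe sets were raised.

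In 3 cases a pair of Aux/IAA genes are neighbours on the chromosome, with 0 protein-coding genes between them in the TAIR10.1 annotation, and in each pair one gene had the higher TL in at least 5 of the 6 samples. *IAA7* exceeded its neighbour *IAA2* by 1.24, 1.32 and 1.59 in *eif3k*, against 1.33, 1.19 and 1.41 in WT. This difference held in 6 of 6 samples and was as large in WT replicate 3 as elsewhere, although both TL values were low there. *IAA17* exceeded *IAA3* by 1.73, 1.99 and 2.04 in *eif3k*, against 2.19, 1.43 and -0.09 in WT. *IAA14* exceeded *IAA1* by 0.67, 0.02 and 0.94 in *eif3k*, against 0.84, 1.54 and 0.55 in WT. The last pair consists of dim probe sets, and its difference nearly vanished in *eif3k* replicate 2.

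**Figure D4:**
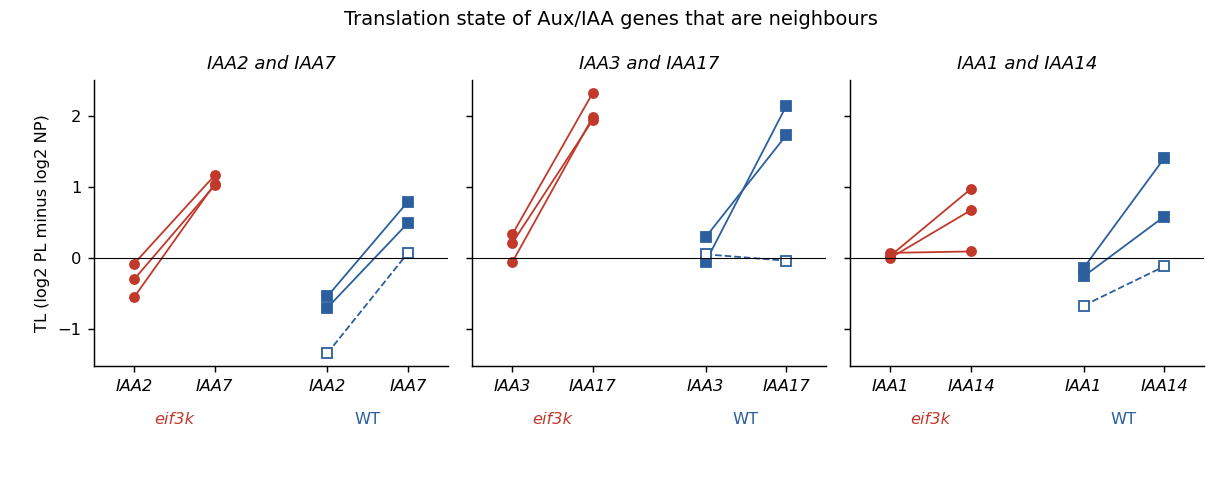
Translation state (TL, y axis) of the neighbouring genes *IAA2* and *IAA7*, *IAA3* and *IAA17*, and *IAA1* and *IAA14*, with *eif3k* in red on the left and WT in blue on the right of each panel, and a line joining the genes of a sample (open squares and dashed line, WT replicate 3). The lines climb in all samples except WT replicate 3 of *IAA3* and *IAA17*, which fell by 0.09.

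The next question was whether the loss of full-length eIF3k altered these translation states. No member was called in TL between *eif3k* and WT, and neither was any of the 22746 probe sets (0%). At an unadjusted p under 0.05, 612 probe sets (2.69%) and 1 of the 32 members, *IAA7*, differed. The smallest adjusted p of a member in limma was 0.823. The point estimates of the TL difference were above 0 for all 12 brighter Aux/IAA mRNAs and the 4 receptors (11 and 3, without *IAA18* and *AFB3*, when arrays were centred on the brighter probe sets or quantile normalized). Their medians were 0.54 and 0.44, and the median over all brighter probe sets was 0.19. Centring moved every difference by -0.20, which left medians of 0.34 and 0.24. Without WT replicate 3 these medians were 0.09, -0.03 and -0.01, and 7 of the 12 Aux/IAA and 2 of the 4 receptor differences were above 0. In the TL of WT replicate 3 all 12 brighter Aux/IAA mRNAs and all 4 receptors were at their lowest of 6 samples, as were 55.1% of the brighter probe sets.

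The largest differences among the brighter members were those of *IAA9*, *IAA17* and *IAA12*. That of *IAA9* was 1.41 (SE 1.47, limma adjusted p = 0.823) and turned to -0.14 without WT replicate 3. That of *IAA17* was 0.81 (SE 0.63) and became 0.16, and that of *IAA12* was 0.71 (SE 0.47) and became 0.24, with an adjusted p of 0.823 each in the fit of all samples. None was below 0 among the brighter members. Most of each of these 3 differences thus came with WT replicate 3.

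For the receptors the difference in TL was 0.57 for *TIR1* (SE 0.71, 95% interval -1.33 to 2.46, limma adjusted p = 0.837), 0.72 for *AFB1* (SE 0.28, -0.03 to 1.46, adjusted p = 0.823), 0.32 for *AFB2* (SE 0.21, -0.24 to 0.88, adjusted p = 0.823) and 0.04 for *AFB3* (SE 0.41, -1.05 to 1.13, adjusted p = 1). When WT replicate 3 was left out they were -0.18, 0.45, 0.11 and -0.36. The sign turned for *TIR1* and *AFB3* and the value shrank for *AFB1* and *AFB2*. The intervals include differences of more than 1 in log2 for *TIR1*, *AFB1* and *AFB3*. The SEs without WT replicate 3 were 0.205, 0.169, 0.105 and 0.227 for *TIR1*, *AFB1*, *AFB2* and *AFB3*, smaller than with all samples.

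The *eif3k* and WT values of TL did not overlap for the brighter *IAA7* and *IAA16* and the dim *IAA1* and *AFB1*, with *eif3k* higher in each, and for no member with *eif3k* lower. Among the brighter probe sets 6.92% had all *eif3k* values above all WT values and 3.36% below. No such share is given for dim probe sets, so the non-overlap of *IAA1* and *AFB1* has no background beside it. For *IAA7* the difference was 0.62 (SE 0.20, 95% interval 0.09 to 1.15, limma adjusted p = 0.823) and 0.43 without WT replicate 3. For *IAA16* it was 0.54 (SE 0.22) and 0.31 without that sample, with an adjusted p of 0.823 and 0.925. *IAA1* had a TL of 0.00, 0.07 and 0.03 in *eif3k*, against -0.26, -0.14 and -0.67 in WT, a difference of 0.39 (SE 0.15, limma adjusted p = 0.823). The tests of *IAA1* and *IAA16* and of the difference of *IAA7* are given here after their values were seen.

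**Figure D5:**
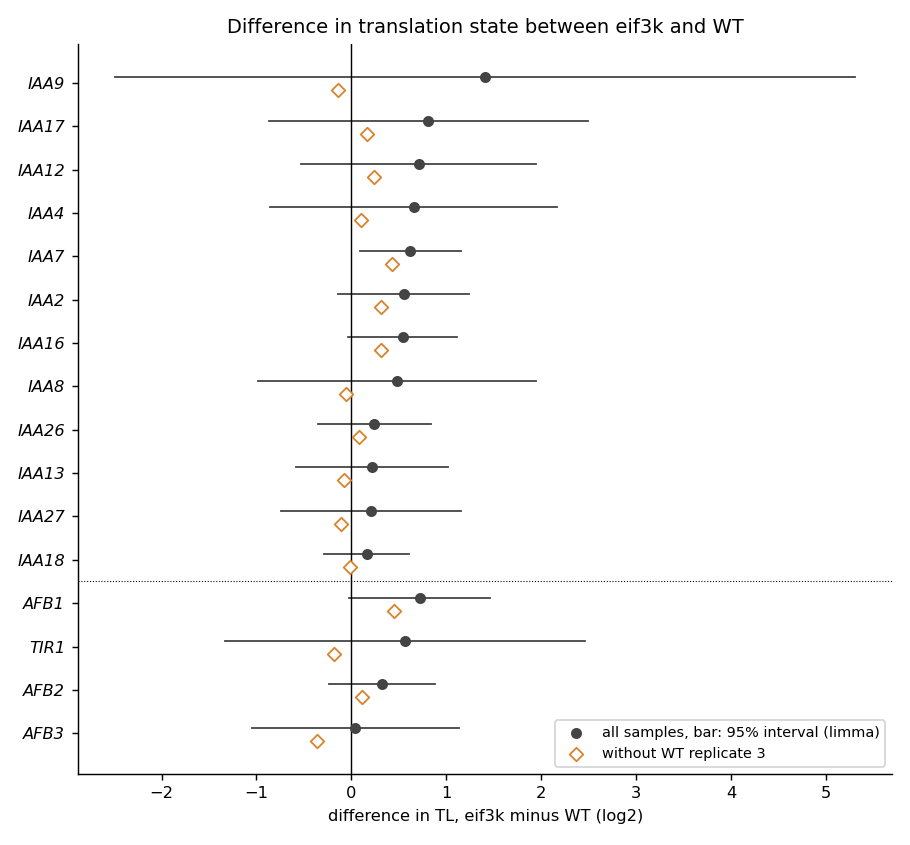
Difference in TL, *eif3k* minus WT (x axis, log2), of the 12 brighter Aux/IAA mRNAs (above the dotted line) and the 4 receptors (below it), with all samples (filled circles, bars are 95% intervals of limma) and without WT replicate 3 (open diamonds). All circles lie right of 0, from 0.04 to 1.41 (centring the arrays on the brighter probe sets or quantile normalization puts *IAA18* and *AFB3* left of 0), and the diamonds lie on both sides of 0.

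In the fractions and in signal level the genotypes were also compared. The level averages the log2 signals of PL and NP in a replicate and stands in for total RNA, which is not analysed here. In such bulk samples fewer cells of a type and less RNA per cell cannot be told apart. No member was called in PL (0% of all probe sets), in NP (0%) or in level (0.0044%). At an unadjusted p under 0.05 the counts were 436, 721 and 664 probe sets (1.92%, 3.17% and 2.92%). Among the 32 members 1 passed in PL (*IAA7*), 3 in NP (*IAA2*, *IAA28* and *AFB1*) and 1 in level (*IAA19*), named here after their values were seen.

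In NP, *IAA2* had log2 signals of 6.16, 6.12 and 6.03 in *eif3k*, against 6.49, 6.55 and 6.60 in WT. The genotypes did not overlap, and the difference of -0.44 (SE 0.05, limma adjusted p = 0.692) was nearly the same without WT replicate 3 (-0.42). In PL its signals were 6.08, 5.82 and 5.48 in *eif3k*, against 5.95, 5.85 and 5.26 in WT, a difference of 0.11 (SE 0.26). For *AFB1* the NP difference was -0.41 (SE 0.13, adjusted p = 0.876), and for *IAA28* it was 0.27 (SE 0.07, adjusted p = 0.876). In level *IAA19* differed by -0.23 (SE 0.05, adjusted p = 0.818).

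In PL the difference was above 0 for all 12 brighter Aux/IAA mRNAs and all 4 receptors, with medians of 0.43 and 0.37, while that of all brighter probe sets was 0.24. Without WT replicate 3 the medians were 0.00, -0.03 and 0.00. On the PL array of WT replicate 3 all 12 and all 4 had their lowest signal of the 6 PL arrays, as did 64% of the brighter probe sets. In NP the medians were -0.09 for the Aux/IAA, 0.12 for the receptors and 0.06 for all brighter probe sets, and without WT replicate 3 they were -0.08, -0.01 and 0.01. *TIR1* in NP differed by 0.15 (SE 0.15), *AFB2* by 0.11 (SE 0.18) and *AFB3* by 0.13 (SE 0.24), with limma adjusted p of 0.876, 0.966 and 0.995.

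Other genes of the auxin pathway were examined through fixed lists, likewise chosen with earlier results of these data known. The receptors act within an SCF ubiquitin ligase, and of its 9 listed genes for subunits and RUB conjugation none was called against 0 with all samples. The median TL of the 7 brighter ones was 0.63 in *eif3k* and -0.02 in WT (0.71 without WT replicate 3), while over all brighter probe sets it was 0.09 in *eif3k* and -0.10 in WT (0.08 without WT replicate 3). *ASK1*, the Skp1-like subunit that F-box proteins bind, had a TL of 1.30 in *eif3k* (limma adjusted p = 0.0799) and 1.22 in WT (0.0966). It was called higher in PL in both genotypes without WT replicate 3, at 1.30 in *eif3k* (adjusted p = 0.022) and 1.62 in WT (0.0293). The related subunit *ASK2* had 0.63 in *eif3k* and 0.53 in WT. The mean TL of the F-box receptors and that of *ASK1* and *ASK2* thus lay on opposite sides of 0. *ASK2* was not called (limma adjusted p = 0.202 in *eif3k* and 0.29 in WT).

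Of 5 TOPLESS corepressor genes 3 were measured and none was called. *TPL*, the namesake, had a TL of -0.36 in *eif3k* and -1.63 in WT (-0.90 without WT replicate 3), and *TPR4* had -0.10 in *eif3k* and -1.14 in WT (-0.21 without it). Their differences between the genotypes, 1.27 (SE 0.70) and 1.04 (SE 0.89), had limma adjusted p of 0.823.

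Among the 15 auxin response factors, the DNA-binding partners of Aux/IAA proteins, 3 were called lower in PL in *eif3k* and 2 in WT with all samples, and 3 in both without WT replicate 3. The shares of all probe sets called lower were 2.55% and 2.82% with all samples and 3.66% and 3.05% without that one. They were *ARF10*, *ARF16* and *ARF17*, named here after their values were seen, which are known targets of the microRNA miR160. *ARF17* had a TL of -2.07, -3.11 and -2.55 in *eif3k*, against -2.55, -3.16 and -1.42 in WT. *ARF10* averaged -2.08 in *eif3k* (limma adjusted p = 0.0281) and -2.52 in WT (0.0189), and *ARF16* -1.71 in *eif3k* (0.0487). Within array batch 1 the call of *ARF10* alone remained in both genotypes. All 3 are dim probe sets. The brightest response factors, *ARF7* and *ARF3*, had a TL of -0.39 and 0.19 in *eif3k*, against -0.75 and -0.07 in WT, and were not called.

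Of 18 other early auxin-induced genes 12 were measured, and 1 was called in each genotype, lower in PL, as were 2.55% of all probe sets in *eif3k* and 2.82% in WT. This was *SAUR15*, a small auxin-up RNA, with -1.63, -1.70 and -0.72 in *eif3k*, against -1.27, -1.26 and -1.48 in WT (limma adjusted p = 0.0397 in both). The call ended without WT replicate 3, and the TL of *SAUR15* in that sample lay within the range of the others. Within array batch 1, *SAUR15* and *SAUR23* were called lower in both genotypes. *HAT2*, a homeobox gene, had -0.48 in *eif3k* and -0.23 in WT. Of 14 genes for auxin synthesis and transport none was called. The influx carrier *AUX1* had 0.01 in *eif3k* and 0.45 in WT, and the efflux carrier *PIN3* had -0.38 in *eif3k* and -0.43 in WT. Between the genotypes no gene of these lists was called in TL.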

How the data were processed

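The authors deposited log2 signals per probe set of Affymetrix ATH1 arrays, background-corrected and normalized across arrays. GCRMA is named in the submitters' processing notes, RMA in the study's methods, and a version or genome build was not given in the sources used here. RefSeq's TAIR10.1 table served for names (33 of 33 members found) and neighbours alone. TL was computed from the signals, and the 6 deposited TL columns were not used. Of 22810 probe sets 64 controls were left out. The genotypes, and TL against 0 with the spread shared by both genotypes, were compared two-sided and without a block by the lmFit and eBayes functions of limma 3.58.1 (R 4.3.3). The limma comparison of TL between the genotypes was tried on simulated data. Arrays have no read depth, so the 3 replicates per group limit the precision. The study calls its replicates biological, and p-values reflect only how far these samples spread, technical spread included.

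Replicates 1 and 2 were hybridized as array batch 1 and replicate 3 as batch 2. Same-numbered samples deviated together from their group means (r = 0.134 to 0.268 in 12 comparisons). The main comparison of the genotypes did not pair the numbers, and the replicate number as a block was an alternative. In NP each sample correlated best with its own number, and in PL those of replicates 1 and 2, which share a batch, did not all do so. For replicate 3 number and batch cannot be told apart. The day length is a long day in the labels and continuous light in the methods.

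Array batch here means the day of array data generation. The members and lists were chosen with earlier results of these data known. Values in each sample were given for the receptors and for Aux/IAA probe sets with a mean log2 signal of at least 5. Tests were given for receptors, called members and the 3 largest TL differences in each direction among brighter members. From each pathway list the 2 genes with the highest mean signal were named. Alternatives were the replicate or array batch as a block, quantile normalization, centring on the brighter probe sets, brighter probe sets alone, a trended robust prior, a fit on each genotype alone, an interaction term, and leaving out samples. An unpaired fit of PL and NP arrays was added after seeing the data.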

Additional observations from a re-analysis of the deposited data

Results flagged for a closer look

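*IAA16* was picked out because its TL was above 0 in all 3 *eif3k* samples (0.20, 0.17 and 0.30) and below 0 in all 3 WT samples (-0.08, -0.09 and -0.77). The difference of 0.54 in log2 was tested with limma over all probe sets and was not called (adjusted p = 0.823).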

How the results depend on the processing

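With all samples 3 members were called against 0 in *eif3k* and 1 in WT. Centring on the brighter probe sets gave 7 in *eif3k* and 6 in WT, testing brighter probe sets alone 7 and 5, a fit on each genotype alone 1 and 0, and a trended robust prior 2 and 1. WT had 3 under quantile normalization and 3 in the unpaired fit. Over all probe sets the calls were 1075 in *eif3k* and 1100 in WT, 2305 and 2148 after centring, 1813 and 1692 among brighter probe sets, and 300 and 0 by genotype. In WT, 458 were higher and 642 lower in PL, against 1162 and 986 after centring and 674 and 582 under quantile normalization. Leaving out 1 sample or 1 replicate number gave 0 to 7 members in *eif3k* and 0 to 8 in WT (highest without WT replicate 3), and 0 to 1875 and 0 to 1548 probe sets.

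Between the genotypes no setting called a probe set in TL. Leaving out samples gave 0 to 1 calls in PL and 0 to 1 in level, where all samples gave 1. NP had 1 among brighter probe sets alone, and level had 2 after centring, 0 under quantile normalization and 0 with the array batch as a block. With the replicate block the level had 0 calls, and TL, PL and NP also had 0. No member was called between the genotypes with or without that block. TL against 0 was not fitted with a block, so the member calls against 0 were not tested there.

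Signs turned for values near 0 or resting on WT replicate 3. Without samples, *IAA4* in *eif3k* lay between -0.14 and 0.28, *IAA9* in WT between -1.69 and 0.82, *IAA26* in WT between -0.23 and 0.10, and the TL difference between -0.28 and 1.15 for *TIR1*, -0.49 and 0.36 for *AFB3* and -0.14 and 2.37 for *IAA9*. After centring *IAA4* was -0.03 in *eif3k*, *IAA26* 0.07 in WT and *AFB3* differed by -0.16. Under quantile normalization the last were 0.08 and -0.11. Of 589 alternative values of single members 497 kept their sign and their call or lack of one, 36 gained a call, 36 lost one and 20 turned sign. Most of these values belong to results that were not called with all samples and so could not lose a call. Over the 9 settings that left out samples, the *AFB2* call stood in 2 in each genotype. In *eif3k* the *IAA7* call stood in 2 and the *IAA27* call in 1. Causes were not tested beyond the removal of samples itself.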
